A study of Mus musculus with 14 samples.

Results

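A set of 10 receptor and transcription factor genes of natural killer (NK) cells and cytotoxic lymphocytes were followed across 14 bulk CT26 tumors. The 10 genes were taken by name from the 53801 genes of the tables, and all 10 passed the filter on low counts that left 16287 genes for testing. They are Ncr1, Klrk1, Klrd1, Klrc1, Klre1, Klrb1c and Klrg1, which encode receptors, Eomes and Tbx21, which encode T-box transcription factors, and Il2rb, which encodes a cytokine receptor chain. CT26 is a colon carcinoma cell line of BALB/c mice (BALBc in the labels). Barcoded CT26 cells were placed under the skin of both flanks of female wild-type BALB/c mice aged 6 to 8 weeks, 250000 cells per flank. From day 7 the mice received either control IgG (clone 2A3) or anti-PD-1 (clone 1A12) by intraperitoneal injection, 200 µg every 3 days for 5 doses, and tumors were collected 3 days after the last dose.

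Control IgG tumors (n = 5, from 4 mice) and anti-PD-1 tumors were sequenced as whole tissue, and the latter were split by their final size against the control cohort into responders (n = 5, from 4 mice) and non-responders (n = 4, from 3 mice). The same barcoded cell population, host strain and antibody route were shared by all groups, so the responder and non-responder groups differ by outcome and not by an assigned treatment. Each tumor is named by its mouse number and flank. Values are listed below in the order 14L, 14R, 16R, 17R and 20R for control IgG, 24L, 26R, 30L, 30R and 35L for responders, and 29L, 32R, 33L and 33R for non-responders. Both flanks of a mouse were sequenced for 14L and 14R, for 30L and 30R, and for 33L and 33R. Total expected counts ranged from 33237744 to 48481461 per tumor.

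NK cells kill target cells without prior sensitization, and their activity is set by the balance of activating and inhibitory receptors, many of which are C-type lectins encoded together in the NK gene complex. Most of these receptors are also found on subsets of activated CD8 T cells, whereas Ncr1 is largely restricted to NK cells and related innate lymphocytes. Eomes and T-bet, the product of Tbx21, direct NK cell maturation and the effector program of CD8 T cells, and both promote expression of Il2rb, through which IL-2 and IL-15 maintain these cells. In bulk tissue, fewer cells of a type and less RNA per cell cannot be told apart, and NK cells cannot be told apart from T cells that carry the same receptor.

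Klrk1, Klrd1, Klrc1, Klre1, Klrb1c and Klrg1 lie on chromosome 6, and the first 4 of these fall between positions 129577905 and 129678973 of the mm10 build. Klrb1c spans 128778485 to 128789215 and Klrg1 spans 122270596 to 122282882 on the same chromosome. Ncr1 lies on chromosome 7 at 4337724 to 4345164, Eomes on chromosome 9 at 118478212 to 118486132, Tbx21 on chromosome 11 at 97098071 to 97115331, and Il2rb on chromosome 15 at 78479256 to 78495271. RefSeq promoters of GRCm38.p6 were matched to 7 of the 10 genes, namely Ncr1, Klrk1, Klrc1, Klre1, Klrb1c, Eomes and Tbx21. The promoters of 3 genes are shown, that of Ncr1 as the receptor most restricted to innate lymphocytes, and those of Klrk1 and Tbx21 as a receptor and a transcription factor called against non-responders. Each sequence is the 250 bases before the transcription start, 5′ to 3′ on the strand of the gene, and capitals mark the Runx motif TGTGGT or the Ets motif GGAAGT on either strand. The Ncr1 promoter lies at chr7:4337474-4337723 on the plus strand, that of Klrk1 at chr6:129623865-129624114 on the minus strand, and that of Tbx21 at chr11:97115332-97115581 on the minus strand.
Ncr1: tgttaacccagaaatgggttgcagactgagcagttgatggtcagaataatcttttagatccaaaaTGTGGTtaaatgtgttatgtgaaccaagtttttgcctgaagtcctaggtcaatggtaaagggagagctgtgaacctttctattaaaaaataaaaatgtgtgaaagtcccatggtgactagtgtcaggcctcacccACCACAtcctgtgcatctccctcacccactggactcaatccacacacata
Klrk1: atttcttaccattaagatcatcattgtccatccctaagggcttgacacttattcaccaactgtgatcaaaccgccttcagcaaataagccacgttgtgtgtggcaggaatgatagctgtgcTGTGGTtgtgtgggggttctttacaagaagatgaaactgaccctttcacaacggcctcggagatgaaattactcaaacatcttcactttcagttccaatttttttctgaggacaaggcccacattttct
Tbx21: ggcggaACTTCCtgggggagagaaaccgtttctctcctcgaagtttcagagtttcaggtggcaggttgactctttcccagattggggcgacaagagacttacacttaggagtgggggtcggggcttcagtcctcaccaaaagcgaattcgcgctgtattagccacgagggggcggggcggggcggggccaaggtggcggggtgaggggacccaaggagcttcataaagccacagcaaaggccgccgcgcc

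Over the window from 250 bases before to 50 bases after the start, the Runx motif was found in 5 of the 7 genes with a promoter (Ncr1, Klrk1, Klrc1, Klre1 and Klrb1c, counting Ncr1 and Klre1 once although RefSeq gives each more than 1 start), and in 16.8% of all 32851 RefSeq promoters. Both transcription factor genes lacked it in this window. The Ets motif was found in 2 of the 7, Klrb1c and Tbx21, against 23.8% of all promoters. The T-box motif GGTGTGA was found in 0 of the 7, against 3.98% of all promoters. These are matches of letters in a short window and say nothing of binding.

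Compared per length, as TPM (each transcript scaled by its length and by the library), the 10 genes spanned a wide range of levels. Il2rb was the most abundant at 18.0 ± 7.70 TPM (mean ± SD, n = 14), and Klrk1, which encodes the activating receptor NKG2D, followed at 13.9 ± 6.59 TPM. Klrd1 stood at 8.34 ± 4.97 TPM, Ncr1 at 6.95 ± 3.19 TPM, Klrc1 at 6.23 ± 2.82 TPM and Klrg1 at 5.14 ± 2.14 TPM. These 4 neighbors in the order differed by less than their spread over tumors. Klre1 at 2.07 ± 1.02 TPM, Eomes at 1.85 ± 0.752 TPM, Tbx21 at 1.09 ± 0.669 TPM and Klrb1c at 0.779 ± 0.494 TPM were the lowest. The rarest member in any tumor was Klrb1c, with an expected count of 18.9, and the most abundant was Il2rb, with an expected count of 4559.

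**Figure D1:**
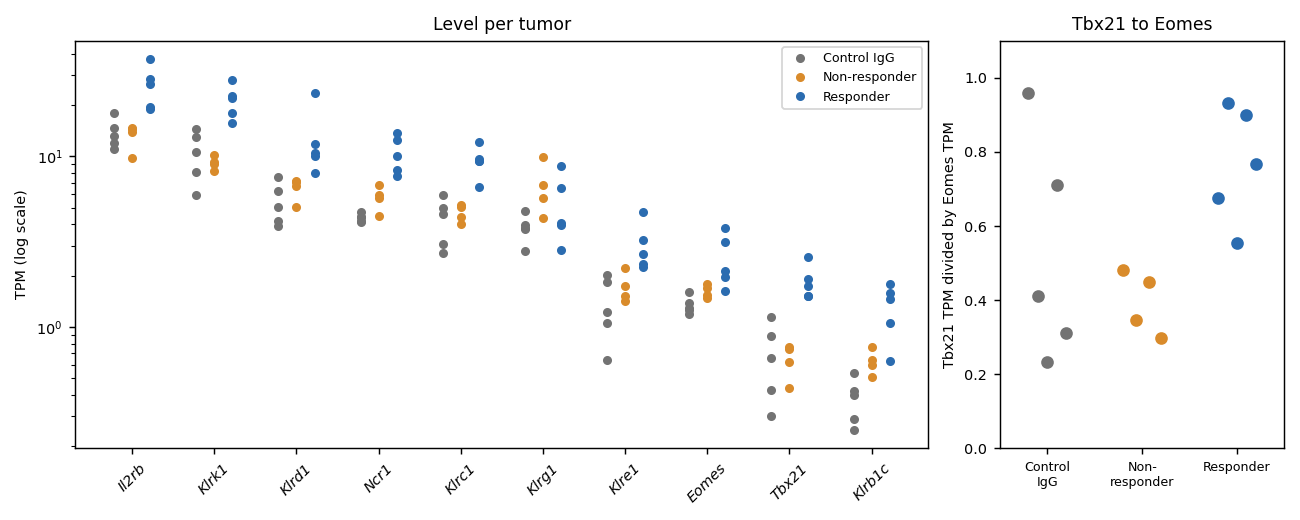
Left, TPM of the 10 genes in every tumor on a log scale, ordered by their mean over all 14 tumors and colored by group. Right, the TPM of Tbx21 divided by that of Eomes in each tumor, where the 5 responders sit between 0.554 and 0.932 and the 4 non-responders between 0.297 and 0.481. The control IgG tumors run from 0.233 to 0.958 and cover both ranges, and the ratio was chosen after its values were seen.

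The first comparison asked which of these genes differed between responders and control IgG tumors. Of the 10, 9 rose in responders, by 0.77 to 1.63 on the log2 scale, and Klrg1 was the exception. Over all 16287 genes tested, 7.88% were called higher in this comparison. The median log2 fold change of the 10 genes was 1.0, beside -0.01 for all genes. In 6 of the 10, every responder was above every control tumor, as was the case for 8.34% of all genes. Calls are from edgeR's quasi-likelihood test at an adjusted p under 0.05, and the CPM values below are counts per library size, with library sizes scaled by TMM, which corrects them for differences in composition.

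The second comparison, of responders with non-responders, asked which genes went with the outcome of anti-PD-1 treatment. Klrk1, Tbx21 and Il2rb rose, by 0.95, 1.30 and 0.77 on the log2 scale, and none fell. Over all genes 5.08% were called higher in this comparison, and all 3 of these genes were without overlap between the groups, as were 6.80% of all genes. Of the 10 log2 fold changes, 9 were above 0, with a median of 0.61 beside 0.01 for all genes. The count of 3 depended on single tumors and on the scale. It was 1 without responder 24L, 0 without non-responder 32R and 2 without non-responder 33R, where Tbx21 and Il2rb had adjusted p values of 0.052 and 0.0506 and Ncr1 was called. Over all genes the number called higher also fell, from 827 to 341, 349 and 506 in these fits. With limma on log2(TPM + 1), 7 genes were called higher, the further 4 being Ncr1, Klrd1, Klrc1 and Klrb1c, on a scale where the median of all genes was shifted by 0.169. On that scale 1969 of all 16287 genes were called higher, so the background rose as well.

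The third comparison set non-responders against control IgG. None of the 10 was called, and 0% of all genes were called by edgeR. At an unadjusted p under 0.05 there were 758 genes, 3 of them members (Ncr1, Klrb1c and Klrg1, all toward higher values in non-responders). DESeq2 called 18 genes and limma-voom 0, with none of the 10 among them. All 3 comparisons share tumors, so their values are given side by side for each gene and are not independent. All adjusted p values below are from edgeR's quasi-likelihood test with Benjamini-Hochberg adjustment over the 16287 genes, and the ± after a log2 fold change is its standard error.

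**Figure D2:**
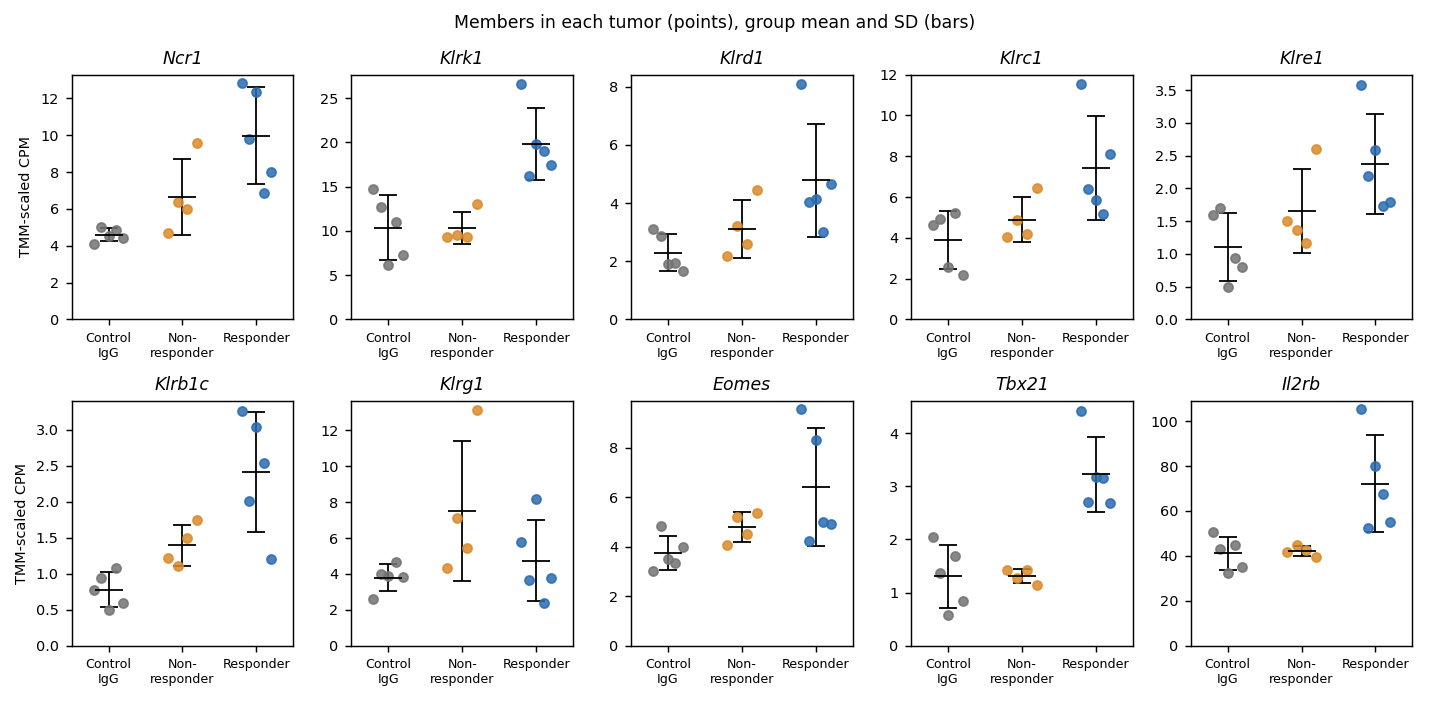
TMM-scaled CPM of each gene in every tumor by group, with the group mean and SD as bars. For Klrk1, Tbx21 and Il2rb all 5 responders lie above all other tumors, whereas for Klrg1 the highest value, 13.1 CPM, belongs to non-responder 33R.

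Ncr1 encodes NKp46, an activating receptor and a defining marker of NK cells. Its level was 4.12, 5.02, 4.55, 4.85 and 4.43 CPM in control IgG tumors. In responders it was 12.9, 9.79, 12.4, 6.87 and 7.98 CPM. In non-responders it was 4.68, 6.37, 6.005 and 9.57 CPM. All responders were above all controls, and only non-responder 33R, at 9.57 CPM, reached into the responder range. The log2 fold change was 1.12 ± 0.20 against control IgG (adjusted p = 0.00307) and 0.58 ± 0.21 against non-responders (adjusted p = 0.0896). Non-responders stood between the other groups, at 0.53 ± 0.21 above control IgG with a 95% interval of 0.08 to 0.98 (adjusted p = 0.932). Against non-responders, Ncr1 was called without 33R (0.82, adjusted p = 0.0338), on counts summed per mouse (0.67, adjusted p = 0.0383) and in DESeq2 (0.58, adjusted p = 0.0455). In counts simulated for this comparison with few genes changed, 20.6% of DESeq2 calls were false, against 3.75% of edgeR calls. The false share depends on how many genes change, so it does not carry over to the calls here. In TPM 33R was at 6.84, below the lowest responder at 7.67.

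Klrk1 encodes NKG2D, which recognizes stress-induced ligands on tumor cells and is carried by NK cells and, in mice, by activated CD8 T cells. Control IgG tumors had 14.7, 12.7, 6.12, 11.04 and 7.22 CPM. Responders had 26.6, 16.2, 19.8, 18.99 and 17.4 CPM. Non-responders had 9.34, 9.59, 9.29 and 12.99 CPM. The lowest responder, 26R, was above the highest control, 14L, and above the highest non-responder, 33R. Klrk1 was higher in responders by 0.94 ± 0.22 against control IgG (adjusted p = 0.0126) and by 0.95 ± 0.23 against non-responders (adjusted p = 0.025). The latter adjusted p was 0.0687 without 24L and 0.0664 without 32R. Non-responders and controls had nearly equal means, 10.3 ± 1.80 CPM (SD, n = 4) and 10.4 ± 3.63 CPM (SD, n = 5), with a log2 difference between -0.51 and 0.49 (95% interval).

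Klrd1, Klrc1 and Klre1 encode CD94, NKG2A and KLRE1, receptor chains encoded side by side with Klrk1. CD94 pairs with NKG2A in an inhibitory receptor for the nonclassical MHC molecule Qa-1. Klrd1 had 3.095, 2.88, 1.92, 1.95 and 1.65 CPM in control IgG tumors, 8.09, 4.02, 4.12, 3.02 and 4.64 CPM in responders and 2.19, 3.22, 2.58 and 4.43 CPM in non-responders. Klrc1 had 4.63, 4.93, 2.55, 5.21 and 2.17 CPM in control IgG tumors, 11.5, 6.38, 5.84, 5.17 and 8.11 CPM in responders and 4.04, 4.86, 4.19 and 6.46 CPM in non-responders. Responder 24L was the highest tumor for both, and in each the lowest responder, 30R, was just below the highest control. Klre1 had 1.59, 1.71, 0.499, 0.9404 and 0.7999 CPM in control IgG tumors, 3.58, 2.19, 2.59, 1.73 and 1.79 CPM in responders and 1.495, 1.37, 1.16 and 2.598 CPM in non-responders. Here the responders cleared the controls, narrowly, and overlapped the non-responders.

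Against control IgG these 3 genes rose by 1.06 ± 0.28, 0.93 ± 0.27 and 1.1 ± 0.34 on the log2 scale, with adjusted p values of 0.0225, 0.0387 and 0.0445. Against non-responders the values were 0.62 ± 0.29, 0.60 ± 0.29 and 0.52 ± 0.35, and none was called (adjusted p = 0.183, 0.197 and 0.354). Their calls against control IgG, together with that of Eomes, were the ones lost when a single tumor was left out. Without control 16R, control 20R or responder 24L all 4 lost significance and the count of 9 fell to 5, the remaining 5 being Ncr1, Klrk1, Klrb1c, Tbx21 and Il2rb. Over all genes the number called higher also fell, from 1284 to 982, 751 and 748 in these fits. Over all 14 fits that left out a tumor, Klrd1 was called in 10, Klrc1 in 9, Klre1 in 5 and Eomes in 8. Klre1 also lost its call without a filter on low counts (adjusted p = 0.0595), and Klrc1, Klre1 and Eomes lost theirs without 24L and 33R together (adjusted p = 0.0796, 0.0748 and 0.0708), an alternative chosen after the data were seen. Reads of Klrc1 can be shared with its neighbors Klrc2 and Klrc3, which are close in sequence, so the division of counts among them is uncertain.

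Klrb1c encodes the NK1.1 antigen, a marker of NK cells in C57BL/6 mice that the standard antibody does not stain in BALB/c mice. It was at 0.767, 0.939, 0.499, 1.08 and 0.594 CPM in control IgG tumors, at 3.26, 2.01, 3.04, 2.54 and 1.199 CPM in responders and at 1.22, 1.11, 1.501 and 1.74 CPM in non-responders. In CPM both anti-PD-1 groups were wholly above the controls, and responder 35L fell within the non-responder range. The non-responders did not clear the controls in TPM, where 32R, at 0.51, was below control 17R, at 0.54. Klrb1c had the largest rise of the 10 against control IgG, 1.63 ± 0.29 (adjusted p = 0.00274), and its difference from non-responders was 0.79 ± 0.30 (adjusted p = 0.0997). Non-responders were 0.84 ± 0.30 above control IgG, with a 95% interval of 0.19 to 1.48 (adjusted p = 0.932). The rise against control IgG was called in all 14 fits that left out a tumor (adjusted p from 0.00125 to 0.0109). The gene overlaps a same-strand annotated gene, Gm44511, which was given 4.08 to 21.4 expected counts per tumor, and the reference is that of C57BL/6, whose NK gene complex differs in sequence from that of BALB/c.

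Klrg1 encodes an inhibitory receptor for cadherins that marks mature NK cells, terminal effector CD8 T cells and some regulatory T cells. Its level was 2.58, 4.01, 3.86, 4.68 and 3.84 CPM in control IgG tumors. Responders were spread over 5.76, 3.67, 8.16, 2.38 and 3.75 CPM. Non-responders held 4.33, 7.13, 5.47 and 13.1 CPM. The highest tumor was non-responder 33R and the lowest was responder 30R, and the groups overlapped in all 3 comparisons. Klrg1 was the only one of the 10 whose highest tumor was not 24L. Its log2 fold change was 0.32 ± 0.33 against control IgG (adjusted p = 0.579) and -0.66 ± 0.35 against non-responders (adjusted p = 0.233), and the latter was -0.24 without 33R. The flanks of mouse 30 were 8.16 CPM on the left and 2.38 CPM on the right, and those of mouse 33 were 5.47 CPM on the left and 13.1 CPM on the right. Within these mice the flanks differed by 1.76 and 1.25 on the log2 scale, and in mouse 14 by 0.63. The largest difference between groups was 0.98, of non-responders above control IgG. Single tumors vary more than group means, so these differences are not of like kind.

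Eomes and Tbx21 encode related T-box factors that act together in NK cells and effector CD8 T cells. Eomes was at 3.04, 4.83, 3.52, 3.35 and 3.98 CPM in control IgG tumors, at 9.57, 4.23, 8.32, 5.01 and 4.93 CPM in responders and at 4.06, 5.19, 4.53 and 5.38 CPM in non-responders. In CPM its responder mean rested on 24L and 30L, since the other 3 responders lay within the range of the non-responders. In TPM only responder 26R, at 1.62, lay within that range. Responders 30R and 35L, at 2.12 and 1.97 TPM, were above the highest non-responder, 32R, at 1.79 TPM. Tbx21 was at 2.04, 1.37, 0.578, 1.69 and 0.846 CPM in control IgG tumors, at 4.42, 2.71, 3.17, 3.16 and 2.68 CPM in responders and at 1.42, 1.27, 1.42 and 1.14 CPM in non-responders. All 5 responders were above the other 9 tumors, and the non-responders lay inside the control range.

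Against control IgG, Eomes rose by 0.77 ± 0.22 (adjusted p = 0.0315) and Tbx21 by 1.31 ± 0.28 (adjusted p = 0.00828). Against non-responders, Tbx21 was higher by 1.30 ± 0.30 (adjusted p = 0.0203), the largest such difference of the 10, and Eomes by 0.42 ± 0.23 (adjusted p = 0.257). The Tbx21 call against non-responders had an adjusted p of 0.0563 without 24L, 0.0559 without 32R and 0.052 without 33R. The difference in Tbx21 between non-responders and control IgG was 0.01, with a 95% interval of -0.63 to 0.66. The ratio of Tbx21 to Eomes in TPM, chosen after its values were seen, was 0.958, 0.4099, 0.233, 0.712 and 0.312 in control IgG tumors. It was 0.674, 0.932, 0.554, 0.901 and 0.766 in responders and 0.4805, 0.346, 0.4497 and 0.297 in non-responders. Eomes was the more abundant transcript in all 14 tumors, and the responder and non-responder ratios did not overlap, while the controls covered both ranges. The antisense gene Gm33460 overlaps Eomes and was given at most 9 expected counts per tumor.

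Il2rb encodes CD122, the chain shared by the receptors for IL-2 and IL-15. Its level was 50.6, 42.9, 32.4, 44.8 and 35.2 CPM in control IgG tumors. Responders had 105, 52.4, 80.05, 67.7 and 54.99 CPM. Non-responders had 41.8, 44.98, 42.5 and 39.7 CPM, the tightest group of the 3. The lowest responder, 26R, was only slightly above the highest control, 14L, and 24L was the highest tumor. Il2rb was higher in responders by 0.81 ± 0.17 against control IgG (adjusted p = 0.00794) and by 0.77 ± 0.19 against non-responders (adjusted p = 0.0225). Against non-responders it was called without 24L (0.59, adjusted p = 0.0479) and not called without 32R (adjusted p = 0.0525) or without 33R (adjusted p = 0.0506).

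**Figure D3:**
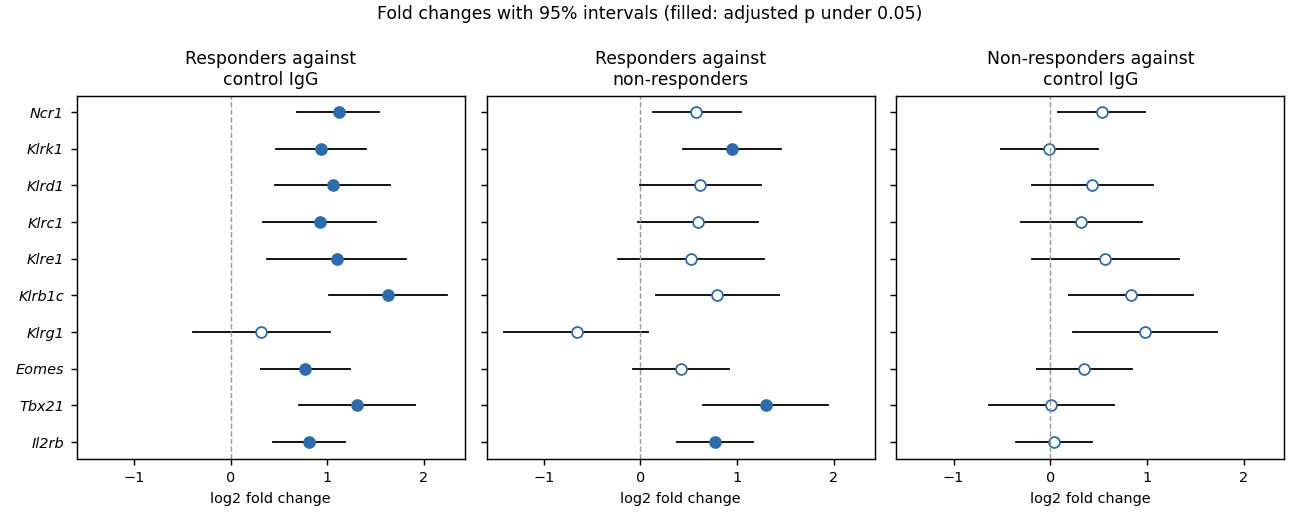
Log2 fold change of each gene with its 95% interval in the 3 comparisons, filled where the adjusted p is under 0.05. In all, 9 points are filled in responders against control IgG, 3 in responders against non-responders (Klrk1, Tbx21 and Il2rb) and none in non-responders against control IgG.

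Partners of the receptors and their ligands were described next. Of 10 adaptors and signaling partners of the receptors, 4 rose in responders against non-responders and 5 against control IgG, with none lower. Cd247, Lat, Zap70 and Vav1, which also serve the T cell receptor, rose against non-responders by 0.99, 1.31, 0.84 and 0.46 (adjusted p = 0.0331, 0.00759, 0.0175 and 0.0313). The adaptors through which NKG2D and other activating NK receptors signal were not called: Hcst (DAP10) differed by 0.05 (adjusted p = 0.916) and Tyrobp (DAP12) by 0.15 (adjusted p = 0.447). Of 16 listed ligands of the receptors, 13 were among the annotated genes and 9 were tested, so the counts do not cover all ligands. Of these 9, 0 rose and 1 fell against non-responders, and 1 rose and 1 fell against control IgG. The ligand that fell was the NKG2D ligand Ulbp1, by 0.36 (adjusted p = 0.0475). H2-T23, which encodes Qa-1, rose against control IgG by 0.71 (adjusted p = 0.0405) and differed from non-responders by 0.53 (adjusted p = 0.142).

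Among 11 tested partners, cytokines and signaling genes of Il2rb, 5 rose in responders against non-responders and 3 against control IgG. Il2rg and Il15ra, the receptor chains that work with Il2rb, rose against non-responders by 0.56 (adjusted p = 0.0173) and 0.78 (adjusted p = 0.0251). Stat5a, Jak1 and the feedback inhibitor Cish also rose. Il15 itself differed by 0.10 (adjusted p = 0.855), and Il2 reached an expected count of at most 1 in any tumor and was not tested. Of 18 other lymphocyte transcription factors, 5 rose against non-responders, namely Tcf7, Tox, Irf4, Ikzf3 and Foxp3, by 0.97 to 1.47. Against control IgG 6 of the 18 rose, and Lef1 fell by 0.62 (adjusted p = 0.033). Runx3, Id2, Zeb2 and Nfil3, which act with the T-box factors in NK cells and effector T cells, were not called in either comparison with responders. Their means in responders were 21.9, 21.4, 139 and 28.8 CPM, beside 3.23 CPM for Tbx21 and 6.41 CPM for Eomes. The cells they came from were not tested, so their level within lymphocytes is not shown.

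Of 13 effector genes known as targets of T-bet or Eomes, 6 rose in responders against non-responders and 7 against control IgG. Ifng, Cxcr3, Cxcr6, Il12rb2, Il18r1 and Ccl5 rose against non-responders by 1.81, 1.15, 1.13, 1.40, 1.31 and 1.45. The cytolytic genes Gzmb and Prf1 differed by 0.21 (adjusted p = 0.705) and -0.24 (adjusted p = 0.638). Of 14 other surface genes of NK cells and cytotoxic lymphocytes, 6 rose against non-responders (Cd7, Cd226, Slamf7, Il12rb1, Cd160 and Tnfsf10) and 8 against control IgG, and the fractalkine receptor Cx3cr1 fell against control IgG by 1.14 (adjusted p = 0.0208). Of 7 tested further lectin-like receptor genes, Klrb1b, Klrb1f and Klri1 rose and Klrg2 fell against non-responders, and 4 rose and Klrg2 fell against control IgG. Among the Ly49 family, 5 of 11 genes were tested, and Klra3 alone rose against control IgG, by 1.63 (adjusted p = 0.00537), with none called against non-responders. Klra4, Klra6, Klra8 and Klra10 had 0 counts in all 14 tumors. Where a count is 0, up to 3 counts remain possible, which is at most 9.03e-06% of a tumor's total, and this covers counting error only. It does not cover strain, since the reference is that of C57BL/6, whose NK gene complex differs in sequence from that of BALB/c. Counts of Ly49 genes, including those at 0, may reflect that difference, which was not tested.

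T cell markers were the marker list most often called higher in responders. Of 10 T cell markers, 8 rose in responders against non-responders and 9 against control IgG, with medians of 1.25 and 1.03 on the log2 scale. Those called against non-responders were Cd2, Cd3e, Cd3g, Cd4, Cd5, Cd6, Cd8a and Cd8b1. The mean log2 CPM of the 10 markers lay between 2.04 and 2.90 in responders, between 1.1 and 1.41 in non-responders and between 0.79 and 1.91 in control IgG tumors, with no overlap between responders and the others. This separation was not particular to T cells. The B cell list had it too, at 0.98 to 1.57 in responders and at most 0.72 in the others. So did the means of the regulatory T cell, gamma delta T cell, T-bet or Eomes target and other surface gene lists. Of 6 tested B cell markers, 2 rose against non-responders (Pax5 and Cd22) and 3 against control IgG. In the same order, gamma delta T cell markers rose in 1 of 6 (Sox13) and 2 of 6, regulatory T cell markers in 2 of 7 (Foxp3 and Tnfrsf4) and 3 of 7, macrophage markers in 1 of 10 (Adgre1) and 1 of 10, neutrophil markers in 1 of 6 (Csf3r) and 1 of 6, and endothelial markers in 0 of 7 and 1 of 7. Skin epidermis and skeletal muscle markers were called in 0 of 10 and 0 of 8 genes in each comparison, although the mean of the epidermis list ran from -1.61 to 5.58 log2 CPM between tumors. Colon epithelium markers rose in 1 of 8 (Cdh17) in each, and group 2 and 3 innate lymphoid markers in 0 of 5. Against control IgG 1 gene of each of these lists fell, Cdx2 and Areg. Of these markers, Tcrg-V5 and Cdx1 had 0 counts in all 14 tumors. Mean fragment length ran from 277.5 to 287.8 bases in non-responders, from 269.5 to 277.0 in responders and from 268.7 to 277.7 in control IgG tumors. Fits with the epidermis list as a covariate and with the trend over gene length removed were among the alternatives. In neither did any of the 10 genes change direction in the 2 comparisons with responders. Beyond these and the ratio to the T cell list that follows, the part of these cells and of fragment length was not tested.

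Each gene was refitted as a ratio to the mean of the 10 T cell markers in the same tumor. In responders against non-responders none of the 10 genes was called higher in this ratio, as was the case for nearly all genes, 0.153% of which were called higher. In responders against non-responders the ratio fell for Klrg1 by 1.89 (adjusted p = 0.000248), for Eomes by 0.81 (adjusted p = 0.0175) and for Klrc1 by 0.63 (adjusted p = 0.0398). A gene that does not follow T cells falls in this ratio, and 83.9% of all genes were called lower, with a median of -1.15. The 3 calls of 10 are a smaller share than this background. The offset lowers all fold changes by a like amount, so genes already higher in responders are called lower less often. The smaller share thus restates the fold changes above and does not show that these genes follow T cells. The ratio of Tbx21 differed by 0.10, with a 95% interval of -0.52 to 0.72, and that of Klrk1 by -0.27, with an interval of -0.75 to 0.21. Ncr1, Klrd1, Klre1 and Il2rb had values between -0.70 and -0.44, and Klrb1c had -0.43. Without 33R only Klrg1 was called, at -1.37 (adjusted p = 0.00235), and without 29L the count was 5. With only Cd3d, Cd3e and Cd3g in the offset the count was 2, and Klrc1 was at -0.49 (adjusted p = 0.108).

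**Figure D4:**
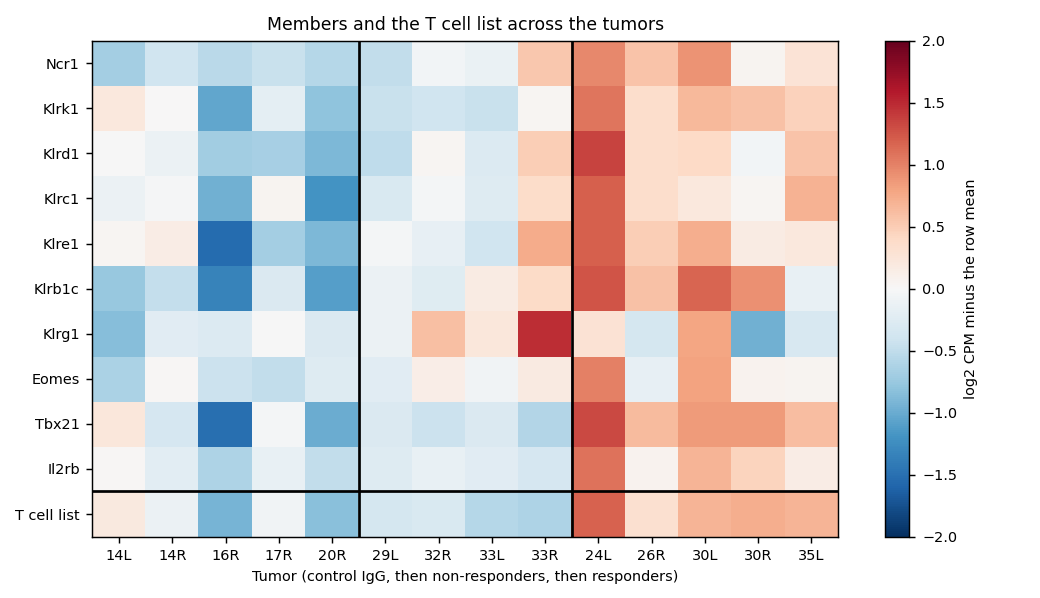
Log2 CPM of the 10 genes and the mean of the 10 T cell markers in each tumor, less the row's mean over 14 tumors. Responder 24L is the highest tumor for 9 of the 10 genes, and in non-responder 33R Klrg1 and Ncr1 are above their means while Tbx21, Il2rb and the T cell list are below theirs.

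Within mouse 33 the flanks differed in several of the genes. Compared with 33L, the other flank of the same mouse, 33R was higher in Ncr1, Klrk1, Klrd1, Klrc1 and Klre1 by 0.67, 0.48, 0.77, 0.62 and 1.13 on the log2 scale, and lower in Tbx21 by 0.30 and in Il2rb by 0.10. In CPM these 5 receptor genes were higher in 33R than in each other non-responder, but in TPM this held for Ncr1, Klrd1 and Klre1 only. Klrk1 turned with the scale, at 9.25 TPM in 33R and 10.17 TPM in 33L, and Klrc1 was at 4.41 TPM in 33R, below 5.18 TPM in 29L. The T cell list was at 1.1 in 33R and 1.15 in 33L. The library of 33R also had the lowest TMM factor, 0.917, and the longest fragments of all, and their part in these values was not tested. In mouse 30, a responder, the left flank was higher than the right in CPM in all 10 genes, from 0.01 for Tbx21 to 1.76 for Klrg1, but in TPM it was lower for Klrk1 (22.02 against 22.7) and Tbx21 (1.75 against 1.91).

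The genes whose pattern over the 14 tumors was most like each of the 10 were found by the smallest SD of the log2 CPM difference. Tbx21 was followed most closely by Cxcl9, an interferon-gamma-induced chemokine (SD of 0.193, beside 0.79 for Tbx21 itself), then by Gm4759 and Cd247. Klrk1 was followed by Ms4a4b (0.118), Fgl2 and Tnfsf10, and Il2rb by Unc13d (0.112), Uba7 and Tapbpl. For Klrd1 the nearest were Gpr174 (0.217), the T cell kinase gene Lck and Ptprcap, and for Klrc1 they were Il10 (0.230), Gpr174 and Ptprcap. Ncr1 was nearest to Gem (0.178), the lectin-like receptor gene Klri2 and Piwil4. Klre1 was nearest to Pla2g4c (0.262), Gpr174 and Apol9b, Klrb1c to Ptafr (0.265), Nr1h3 and Bst1, and Eomes to Bmper (0.186), Rhof and Irf8. Klrg1 had the most distant neighbors of the 10, Gm6916 (0.299), Arg1 (0.320) and Cd55. These are descriptions over tumors that share groups and libraries.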

How the data were processed

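Bulk poly(A) RNA-seq of 14 CT26 tumors was used, 5 control IgG, 5 anti-PD-1 responders and 4 non-responders, grouped by the sample labels. STAR, RSEM and the mm10 build are named in the submitters' processing notes, and the methods of the study give RSEM quantification of STAR alignments. The authors deposited RSEM's expected counts, which are not normalized and in which a fragment that fits more than 1 gene is split. The deposited TPM values divide these by effective length and library size, and deposited FPKM values were not used. Of 53801 gene IDs, 53620 were paired with a symbol.

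Expected counts, rounded, were tested with edgeR 4.0.16 (R 4.3.3): TMM, filterByExpr, a quasi-likelihood fit of all 14 tumors with 3 groups, and Benjamini-Hochberg adjustment over 16287 genes. TMM-scaled CPM is shown, and log2 CPM uses a prior count of 2. The ratio to the T cell list used the mean log2 CPM of its 10 genes as an offset, with Cd3d, Cd3e and Cd3g alone as the alternative. DESeq2 1.42.0, limma 3.58.1, other scalings and filters, counts summed per mouse, a removed length trend, an epidermis covariate and leaving out each tumor were the alternatives. The script was tested on simulated counts: for responders against non-responders, edgeR recovered 65.2% of genes changed by 1 on the log2 scale, over 16106 genes. Nothing in the labels gives a batch.

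Genes described beside the 10 came from lists of receptor partners, ligands and markers. The members and lists were chosen with earlier results of these data known. All 10 genes are given with their values in every tumor, list genes are given as counts, and those are named that were called against non-responders or partner a member, and for each member the 3 tested genes with the smallest SD of the log2 CPM difference are named. Tumors of a mouse are not separate animals, so p values may be too small. Counts summed per mouse gave 1760 calls over all genes against non-responders and 2856 against control IgG. The main fit gave 1612 and 2147. Limma-voom with mouse as a random effect, a further alternative, gave 2973 and 2974, beside 1491 and 2226 without it.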

Additional observations from a re-analysis of the deposited data

Results flagged for a closer look

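Among the 10 genes in the 3 groups (30 sets of tumors), 1 set had a tumor far from the rest. For Klrk1 in non-responders, tumor 33R, at 13.0 CPM, was above 9.59, 9.34 and 9.29 CPM in the other 3, and its gap to the nearest of them was 0.906 of the group's range on the log2 scale. In TPM the same tumor, at 9.25, lay inside the range of the other 3, 8.25 to 10.17. The limit for a flag in a set of 4 tumors was a gap of 0.829, which chance alone passes in about 5% of sets. As 30 sets were looked at, a flag by chance among them would not be unusual.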

How the results depend on the processing

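In responders against non-responders, the count of 3 members became 7 with limma on log2(TPM + 1) and 7 on log2(TPM + 0.1), scales on which the median of all genes was shifted by 0.169 and 0.235. The member count ranged from 0 to 4 when each tumor was left out, and was 0 without 24L and 33R together, an alternative chosen after the data were seen. Over all genes 827 were called higher in the main fit, and 1969 and 1897 on the 2 TPM scales. When each tumor was left out this number ran from 341 to 923, and it was 95 without 24L and 33R together. In responders against control IgG, the count of 9 ranged from 5 to 9 when each tumor was left out. Over all genes the number called higher there was 1284 in the main fit and ran from 748 to 1847. Non-responders against control IgG gave 0 members in each setting run. Relative to the T cell list, the count of 3 ranged from 1 to 5 when each tumor was left out. No member changed direction in either comparison with responders. In non-responders against control IgG, where they were not called, 3 members changed sign. Klrk1 was 0.05 with limma-voom, 0.00 with upper quartile normalization and 0.07 on counts summed per mouse. Tbx21 was -0.02 on log2(TPM + 1), and Il2rb was -0.05 on both TPM scales. When each tumor was left out, Klrk1 ran from -0.15 to 0.15, Tbx21 from -0.17 to 0.23 and Il2rb from -0.04 to 0.12. The cause of these shifts was not tested. No paired analysis was possible because the labels number tumors by mouse and flank, with no number shared between groups. The groups hold 4 or 5 tumors from 3 or 4 mice, and Klrb1c, Klre1 and Tbx21 had at most 80 expected counts in any control tumor, so intervals that include 0 do not show equal levels.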
